A study of Homo sapiens with 4 samples.

Results

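The 9 genes described here, CDKN2A, CDKN2B, RASSF1, MGMT, HIC1, GATA4, GATA5, TFPI2 and TIMP3, are tumour suppressor genes known from other work to be silenced by promoter methylation in lung or colorectal cancer. They were taken by name from the deposited gene table, in which all 9 of them are listed among 43296 gene names, 40877 of which name 1 gene. The rule that picks them uses names and no measured value, although the list was drawn up with earlier results of these data known. No methylation was measured in these samples. The cells came from 2 established human lines at passage 5 to 10, H1299 from a non-small cell lung cancer and HCT116 from a colorectal cancer. Each line was cultured with the solvent DMSO or with decitabine (DAC, an inhibitor of DNA methyltransferases, 500 nM for 72 h) plus SB939 (an inhibitor of histone deacetylases, 500 nM for 18 h), the medium being renewed with compound every 24 h. A single library of single cells was made per line and treatment with the 5′ chemistry of 10x Genomics, 4 libraries in all. The treated libraries are called DAC+SB. Both agents were always given together, so their parts cannot be told apart.

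Promoters rich in the dinucleotide CG are normally unmethylated, and in tumours some become densely methylated, become packed with deacetylated histones, and stop being transcribed. DAC is built into replicating DNA and traps the enzymes that copy methylation, so that methylation is lost over cell divisions. Inhibition of histone deacetylases raises histone acetylation. Whether a gene was already transcribed in the DMSO cells is therefore given first.

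Of the 9 genes, 6 were read in 7 RefSeq promoter windows (GRCh38.p14, 250 bases before to 50 bases after a start, 300 in all). No window was read for the remaining genes, which does not show that RefSeq lacks windows for them. The dinucleotide CG, which reads the same on both strands, occurred 45 times in the MGMT window, 33 in RASSF1, 31 in TIMP3, 26 in TFPI2, 25 in CDKN2B, and 28 and 26 in the windows of the outer and inner CDKN2A starts. Over all 35116 windows of that length the median was 14, with the middle 50% of windows between 4 and 28, and 96.0% held at least 1 CG. Each of the 7 windows read thus lay above the median of all promoters, whether its gene was active or near 0 in the DMSO cells. The RASSF1 window lies at an internal start of the gene (chr3:50337401-50337700), not at the outermost one. Its CG count thus does not describe the outermost start. It was also not matched to isoform A, whose promoter is the one known to be methylated in tumours. The order of the windows by CG was not the order of the ratios given below. The bases upstream of the start are printed for TFPI2 and TIMP3, both near 0 in HCT116 DMSO cells and higher with DAC+SB, and for both CDKN2A starts, as a gene with at least 4519 counts in every library. Each is 250 bases, 5′ to 3′ on the gene's own strand in GRCh38.p14, with every CG in capitals. TFPI2 is at chr7:93890754-93891003 (minus strand), TIMP3 at chr22:32801455-32801704 (plus strand), the outer CDKN2A start, of the transcript for ARF, at chr9:21995325-21995574 and the inner one, of the transcript for p16, at chr9:21974858-21975107 (both minus strand).
TFPI2: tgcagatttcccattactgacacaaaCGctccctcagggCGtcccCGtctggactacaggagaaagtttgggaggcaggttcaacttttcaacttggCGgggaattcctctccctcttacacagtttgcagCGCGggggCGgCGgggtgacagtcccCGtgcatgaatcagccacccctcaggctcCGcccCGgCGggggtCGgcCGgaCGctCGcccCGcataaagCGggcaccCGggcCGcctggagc
TIMP3: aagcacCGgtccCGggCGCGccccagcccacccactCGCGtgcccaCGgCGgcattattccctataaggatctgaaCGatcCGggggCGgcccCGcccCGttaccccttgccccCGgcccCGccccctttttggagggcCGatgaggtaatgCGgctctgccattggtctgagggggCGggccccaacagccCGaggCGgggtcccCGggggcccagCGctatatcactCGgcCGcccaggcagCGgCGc
CDKN2A outer start: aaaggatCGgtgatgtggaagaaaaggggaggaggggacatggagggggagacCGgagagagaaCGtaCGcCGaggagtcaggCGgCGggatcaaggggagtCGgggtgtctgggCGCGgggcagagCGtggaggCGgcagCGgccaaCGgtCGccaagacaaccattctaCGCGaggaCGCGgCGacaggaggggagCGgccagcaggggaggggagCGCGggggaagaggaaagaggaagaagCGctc
CDKN2A inner start: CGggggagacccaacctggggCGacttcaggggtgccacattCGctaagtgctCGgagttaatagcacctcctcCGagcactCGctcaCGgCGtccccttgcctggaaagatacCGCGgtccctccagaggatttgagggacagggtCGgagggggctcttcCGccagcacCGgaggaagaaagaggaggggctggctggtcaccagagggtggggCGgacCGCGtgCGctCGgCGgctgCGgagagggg

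The H1299 libraries held 3578 cells (DMSO) and 3726 cells (DAC+SB) and the HCT116 libraries 3658 and 4327, 15289 in all, with between 38927267 and 64524196 counts of genes and transposable elements (TE) per library. The HCT116 DAC+SB library was the shallowest, at a median of 8449 counts per cell against 15784.5 to 17369.5 in the other libraries, and it had the highest median mitochondrial share, 18.6% against 8.33% to 15.8%. Between 18 and 30 cell barcodes were shared by any pair of libraries, 131 barcodes in all. The line labels were checked against short marker lists. The 5 H1299 markers summed to 2329 and 1186 CPM (counts scaled to the summed gene and TE counts of the library) in H1299 DMSO and DAC+SB, against 62.3 and 285 in HCT116. The 7 HCT116 markers summed to 108 and 61.6 CPM in HCT116 DMSO and DAC+SB, against 0.248 and 10.3 in H1299. The sum of each list was highest in the line it stands for. The defining markers CDH2, NNMT and TWIST1 were at 0 in HCT116 DMSO, and KRT20 was at 0 in both H1299 libraries, while CDH17, on the HCT116 list, was at 0 in HCT116 DMSO itself. VIM made up 147273 of the 150287 H1299-list counts in H1299 DMSO, and NNMT had 7 and 6 counts in H1299. On the HCT116 list, EPCAM, CDX2, VIL1 and KRT20 were higher in HCT116 under both treatments, whereas LGALS4 (1.60 against 1.08 CPM), ESRP1 (2.92 against 2.41) and CDH17 (0.529 against 0.385) were higher in H1299 DAC+SB than in HCT116 DAC+SB. Each list was also closer to the other line with DAC+SB than with DMSO, and the part of this in the values below was not tested.

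With DMSO, 4 of the 9 genes (CDKN2A, CDKN2B, RASSF1 and MGMT) had between 514 and 26440 counts in both lines, and none of these was 4-fold higher with DAC+SB. The remaining 5 (HIC1, GATA4, GATA5, TFPI2 and TIMP3) had at most 23 DMSO counts in either line, apart from TFPI2 in H1299 with 2123, and all but TIMP3 in H1299 were higher with DAC+SB. This grouping uses the DMSO counts, which are also the denominator of the ratio. A gene near 0 with DMSO could hardly be lower, so the contrast between the groups is largely set by the grouping. The share of all genes at like DMSO counts was not computed. Genes were compared where the higher library of a line had 100 counts or more. A ratio of at least 4 (DAC+SB over DMSO) was reached by 3 of 7 members in H1299 (HIC1, TFPI2 and GATA4), that is 42.9%, against 11.0% of all 14610 genes so tested. It was reached by 3 of 7 in HCT116 (TIMP3, TFPI2 and GATA4), also 42.9%, against 9.63% of 13539 genes. Of the 6 members that met the minimum in both lines, TFPI2 and GATA4 passed in both, against 4.68% of 12644 genes. Under other processing settings the number was between 1 and 4 in H1299 and between 3 and 5 in HCT116, as given in the closing section. A gene silent with DMSO could reach the minimum only through the DAC+SB library, so its place among the higher genes was fixed by entering. This holds for HIC1 and GATA4 in H1299 and for all of TIMP3, TFPI2 and GATA4 in HCT116, and these counts describe the members that passed, with nothing read from their excess over all genes. No member was 4-fold lower, while 0.349% of all genes in H1299 and 3.69% in HCT116 were. The median log2 ratio was 0.04 in H1299 and 0.32 in HCT116 over the 7 members that passed, and 1.21 over the 8 with a ratio in H1299 and 3.11 over all 9 in HCT116, bounds included, while the median of all tested genes was -0.07 and -0.23. The median thus depended on whether members of low count were included. With 1 library per group nothing was tested, and the 95% intervals printed below cover counting error only.

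**Figure D1:**
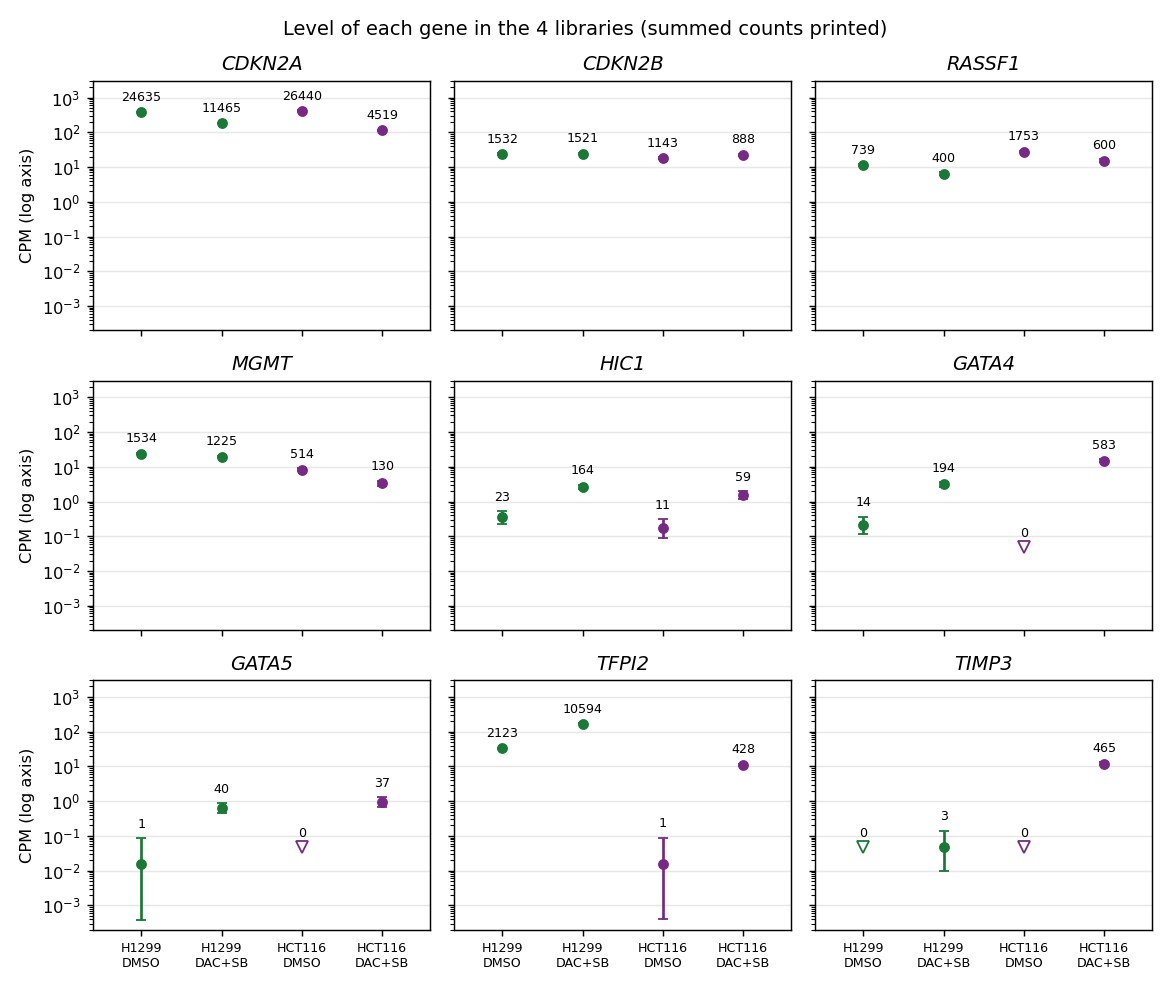
CPM of each gene in the 4 libraries on a log axis, with exact Poisson 95% intervals and the summed counts above each point; green is H1299, purple HCT116, and open triangles mark a count of 0, drawn at the level of 3 counts. CDKN2A, CDKN2B, RASSF1 and MGMT had at least 130 counts in every library, whereas TIMP3, GATA4 and GATA5 were at 0 in HCT116 DMSO.

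CDKN2A and CDKN2B encode inhibitors of the cyclin D-dependent kinases CDK4 and CDK6 and lie next to each other on chromosome 9 (GRCh38, GENCODE v29, chr9:21967753-21995301 and chr9:22002903-22009363, both on the minus strand, 7601 bases apart). CDKN2A also encodes ARF, which binds MDM2 and so stabilises p53, from another first exon. In H1299, CDKN2A had 24635 counts with DMSO and 11465 with DAC+SB (382 and 184 CPM), and in HCT116 it had 26440 and 4519 (422 and 116 CPM). It was detected at a high count in every library and was lower with DAC+SB in both lines. The ratio corresponds to 2.08-fold lower in H1299 (log2 ratio -1.06, interval -1.09 to -1.02) and 3.64-fold lower in HCT116 (-1.86, -1.91 to -1.82). Only 6.26% of tested genes had a lower ratio in H1299, and 4.80% in HCT116. The difference between the lines in log2 ratio, HCT116 minus H1299, was -0.81 (-0.86 to -0.75), beyond counting error.

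The gene table splits many genes into a feature with no number and numbered ones, whose meaning was not given in the sources used here, so the split between p16 and ARF starts cannot be read from it. Both features of CDKN2A were lower with DAC+SB. Feature 1 gave log2 ratios of -1.28 and -2.14 in H1299 and HCT116, and the feature with no number -0.77 and -1.40. Which of the starts gave the CDKN2A counts is thus unknown.

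CDKN2B, which encodes p15, had 1532, 1521, 1143 and 888 counts (DMSO before DAC+SB and H1299 before HCT116, an order kept from here on), or 23.7, 24.4, 18.2 and 22.8 CPM. Its level varied least of the 9 across libraries: the log2 ratio was 0.04 (-0.07 to 0.14) in H1299 and 0.32 (0.19 to 0.45) in HCT116. Its 2 features gave nearly the same ratios, 0.03 and 0.05 in H1299 and 0.35 and 0.30 in HCT116. Of the genes around it, CDKN2B-AS1 and MTAP were lower with DAC+SB, and CDKN2A-AS1, placed here by its name only, was higher. CDKN2B-AS1, an antisense RNA across the whole of CDKN2B and 524 bases of CDKN2A, had log2 ratios of -1.36 and -1.45, and MTAP, a gene of methionine salvage, -1.20 and -1.29. MTAP also had 752, 598, 2170 and 855 counts under joined names, with which its ratios were -0.84 and -0.92. CDKN2A-AS1, named after its values were seen, had 0 and 194 counts in H1299 and 2 and 129 in HCT116. The use of strand in counting was not given in the sources used here, so reads of a gene and its antisense partner may not be separable.

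The other inhibitors of this family went in different directions. CDKN2C (p18) was lower, with log2 ratios of -1.28 in H1299 and -1.0 in HCT116, and CDKN2D (p19) was higher, at 1.64 and 2.53. CDKN1A (p21) was higher at 1.18 and 1.74, and CDKN1B (p27) was lower at -0.40 and -0.80. CDKN1C (p57), itself known for promoter methylation, had 23 and 405 counts in H1299 and 784 and 2754 in HCT116, which is 18.2-fold and 5.65-fold higher with DAC+SB. Among the targets of this pathway, CCND1 (cyclin D1) had log2 ratios of -1.24 and -2.60, CDK4 of -0.86 and -1.83, CDK6 of -1.38 and -1.25, RB1 of -1.46 and -0.87 and E2F1 of -1.84 and -1.13. The other D-type cyclins were not lower. CCND2 had 22 and 412 counts in H1299 (log2 4.27) and 1 and 79 in HCT116, and CCND3 had log2 ratios of 0.40 and 0.35. MDM2, the partner of ARF, had log2 ratios of -0.55 and -1.16.

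RASSF1 encodes a scaffold protein of the Ras association domain family that activates the Hippo kinases STK3 and STK4 (chr3:50329782-50340980, minus strand). It had 739, 400, 1753 and 600 counts, or 11.5, 6.41, 28.0 and 15.4 CPM. RASSF1 was 2.44-fold higher in HCT116 than in H1299 with DMSO and 2.41-fold higher with DAC+SB. It was lower with DAC+SB by nearly the same ratio in both lines, 1.79-fold in H1299 (log2 -0.84, -1.02 to -0.66) and 1.82-fold in HCT116 (-0.86, -1.0 to -0.73). The difference between the lines was -0.02 (-0.24 to 0.20). A lower ratio than that of RASSF1 was found for 11.5% of tested genes in H1299 and 24.8% in HCT116.

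The features of RASSF1 did not move together in HCT116. The feature with no number had 1279 and 243 counts there, a log2 ratio of -1.71 (-1.91 to -1.51), while feature 1 had 286 counts with DMSO and 357 with DAC+SB, or 4.57 and 9.17 CPM, a log2 ratio of 1.01 (0.78 to 1.24). In H1299 feature 1 had 133 and 74 counts, a log2 ratio of -0.80 (-1.23 to -0.38). Feature 2 had 188 counts in HCT116 DMSO and was not listed elsewhere. RASSF1 is transcribed from more than 1 promoter, of which the one of isoform A is the one known to be methylated in tumours, but the deposited numbers do not say which start a feature holds or that a number marks the same start in each library. RASSF1-AS1, which overlaps 790 bases of the gene on the other strand, was higher at 0.99 and 1.46, and the adjoining ZMYND10 at 1.72 and 1.5.

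Of the relatives RASSF2 to RASSF10 with at least 100 counts in a line, RASSF4 alone was 4-fold higher, in HCT116 (156 and 421 counts, log2 2.12), with 0.25 in H1299. RASSF3 was lower in both lines, at -0.97 and -1.61. RASSF10 had at most 20 counts in any library and was not placed. Of the Hippo genes downstream, STK3 and STK4 had log2 ratios between -0.23 and 0.48, and SAV1 had 0.44 and -0.28. LATS1 was lower at -1.36 and -1.13, and LATS2 less so at -0.40 and -0.26. YAP1, the coactivator that these kinases restrain, was lower at -1.30 and -1.99. CTGF, a target of YAP1, was 4.82-fold higher in H1299 and 19.9-fold higher in HCT116, whereas CYR61, another, had log2 ratios of -0.28 and 1.65.

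MGMT encodes the enzyme that removes alkyl groups from guanine in DNA (chr10:129467184-129768007, plus strand). It had 1534, 1225, 514 and 130 counts, or 23.8, 19.6, 8.21 and 3.34 CPM. The level was 2.90-fold higher in H1299 than in HCT116 with DMSO and 5.88-fold higher with DAC+SB. Treatment went with a small difference in H1299 (log2 ratio -0.28, -0.39 to -0.17) and with a 2.46-fold lower level in HCT116 (-1.30, -1.59 to -1.02). The difference between lines was -1.02 (-1.32 to -0.72). A lower ratio than that of MGMT was found for 38.0% of tested genes in H1299 and 12.4% in HCT116. MGMT was transcribed in both lines before treatment, and its window held more CG than those of 96.5% of promoters.

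HIC1 encodes a zinc finger repressor that acts on SIRT1 among other targets (chr17:2054154-2063241, plus strand). It had 23, 164, 11 and 59 counts, or 0.356, 2.63, 0.176 and 1.52 CPM. Both treated libraries were above both DMSO libraries. HIC1 was 7.37-fold higher with DAC+SB in H1299 (4.75 to 12.0) and 8.63-fold higher in HCT116 (4.49 to 18.2), where it stayed below the minimum of 100 counts and so was not among the genes counted above. With cells thinned, which left 1 HCT116 DMSO cell with a count, the HCT116 log2 ratio was 4.36, against 3.11. The difference in log2 ratio between the lines was 0.23 (-0.89 to 1.35), too wide at these counts to order them. SMG6, a decay factor whose gene overlaps 3403 bases of HIC1 on the other strand, had log2 ratios of 0.00 and -0.07. The paralogue HIC2 had -0.18 and 0.33, and SIRT1 had 0.40 and 0.27.

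GATA4 and GATA5 encode zinc finger transcription factors of endoderm and heart (GATA4 at chr8:11676959-11760002, plus strand; GATA5 at chr20:62463497-62475970, minus strand). GATA4 had 14, 194, 0 and 583 counts, or 0.217, 3.11, 0 and 15 CPM. It was 14.3-fold higher with DAC+SB in H1299 (8.33 to 26.7). In HCT116 it was 313-fold higher with the DMSO library set at 3 counts, with a lower 95% limit of 254. The order of the lines therefore differed by treatment: GATA4 was higher in H1299 with DMSO (14 against 0 counts) and 4.82-fold higher in HCT116 with DAC+SB. Feature 1 of GATA4, with 95 counts in H1299 DAC+SB and 432 in HCT116 DAC+SB, was not listed in either DMSO library. Numbered features were listed from 10 counts and others from 1, so an unlisted feature need not be a true 0. The feature with no number alone gave 14 and 99 counts in H1299 (log2 2.87, 2.06 to 3.79) and 0 and 151 in HCT116. The latter is 81.0-fold with DMSO set at 3 counts (log2 6.34, lower 95% limit 6.02). With the unlisted feature taken as 9 counts, 1 below the lowest listed count, the HCT116 log2 ratio of GATA4 was 6.70, against the bound of 8.29.

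GATA5 had 1, 40, 0 and 37 counts, or 0.0155, 0.641, 0 and 0.950 CPM. The ratio in H1299 was 41.3 (7.01 to 1673) from 1 DMSO count. In HCT116 the level was 19.8-fold higher with DMSO set at 3 counts, with a lower limit of 15.3. With unlisted features taken as 9 counts the log2 ratios were 2.34 and 2.73, against 5.37 and 4.31. GATA5 was thus detected with DAC+SB at similar low levels in both lines. GATA2, GATA3 and GATA6 had counts in both lines before treatment. GATA2 had log2 ratios of 0.61 and 1.32, GATA3 of 1.33 and 2.34, with GATA3 tested in HCT116 at 59 and 186 counts, and GATA6 of -0.14 and 0.03. GATA1 had at most 4 counts anywhere. The GATA cofactors ZFPM1 and ZFPM2 had log2 ratios of 0.97 and 1.04 in H1299, and of 0.92 and, under the minimum, 1.6 in HCT116.

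TFPI2 encodes a secreted Kunitz-type inhibitor of serine proteases such as plasmin (chr7:93885396-93890991, minus strand). It had 2123, 10594, 1 and 428 counts, or 32.9, 170, 0.0160 and 11.0 CPM. TFPI2 was transcribed in H1299 before treatment, whereas HCT116 had a single count. It was 5.16-fold higher with DAC+SB in H1299 (4.92 to 5.41), and the ratio in HCT116 was 689 (123 to 27265) from 1 DMSO count. The H1299 log2 ratio, 2.37 (2.30 to 2.43) as counted, fell below that interval under other settings. It was 2.15 without the 5% of cells with most counts, 2.20 as a mean over cells and 2.22 with cells thinned to 3300 counts. Over the feature with no number it was 1.81, below 4-fold. With feature 1, unlisted in HCT116 DMSO, taken as 9 counts there, the HCT116 log2 ratio was 6.11, against 9.43. The difference between lines in log2 ratio was 7.06 (4.23 to 9.89) as counted and 3.74 with that feature at 9 counts, outside the interval. That interval is a normal approximation, unlike the exact ones of the ratios, and is not reliable with 1 DMSO count. The level in treated HCT116 nonetheless remained below that of untreated H1299, and the treated lines differed 15.4-fold. Feature 1 accounted for more of the H1299 difference, with 937 and 6561 counts (log2 2.86), than the feature with no number, with 1186 and 4033 (1.81). TFPI2 lies wholly within GNGT1 on the opposite strand, a gene that had 339 and 234 counts in H1299 and 0 and 7 in HCT116. TFPI, the related inhibitor of the tissue factor pathway, had 165 and 138 counts in H1299 and 2 and 9 in HCT116.

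TIMP3 encodes an inhibitor of matrix metalloproteinases that is held in the extracellular matrix (chr22:32801701-32863043, plus strand). It was at 0 in both DMSO libraries, had 3 counts in H1299 DAC+SB and 465 in HCT116 DAC+SB, where its level was 11.9 CPM. TIMP3 was the one member with more than 3 counts in a single library only. In HCT116 it was 249-fold higher with DAC+SB, with DMSO set at 3 counts and a lower limit of 202. The ratio of treated HCT116 to treated H1299 was 249 (log2 6.40 to 10.24) from 3 counts. No ratio is given in H1299, where both libraries were at or under 3 counts. Feature 1, with 264 of the counts in HCT116 DAC+SB, was listed nowhere else, and the feature with no number gave 0 and 201 counts. With feature 1 taken as 9 counts in DMSO the log2 ratio was 6.38, against the bound of 7.96. TIMP3 lies wholly within SYN3, a synapsin gene on the opposite strand, which had 0 and 9 counts in H1299 and 0 and 62 in HCT116. SYN3 and TIMP3 were thus both detected only in treated cells.

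Of the other inhibitors of this family, TIMP1 and TIMP2 had DMSO counts in both lines and TIMP4 had none. TIMP1 had ratios (log2) of 1.31 in H1299 and 0.57 in HCT116, TIMP2 had 0.32 and 0.92, and TIMP4 had at most 11 counts. Among their target proteases, MMP1 was 8.01-fold higher in H1299, with 24 and 186 counts, and had a ratio of 336 in HCT116 (log2 interval 5.90 to 13.70) from 1 and 209 counts. MMP14 was 5.35-fold lower in H1299 and 5.11-fold lower in HCT116. MMP9 had 18 and 181 counts in H1299 (log2 3.38) and 25 and 91 in HCT116. ADAM17 had log2 ratios of -0.28 and -0.20, and MMP2 had at most 53 counts under its own name.

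**Figure D2:**
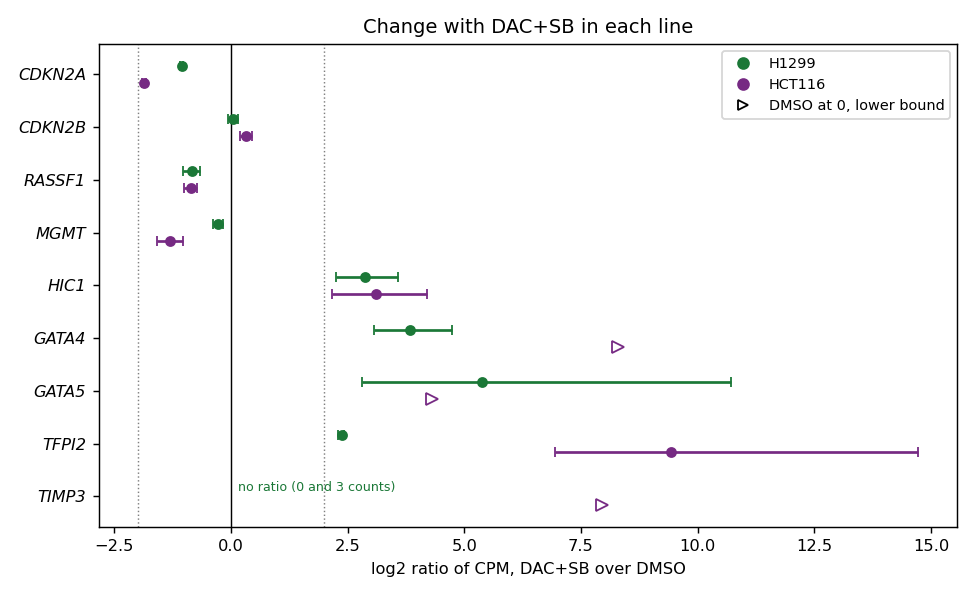
log2 ratio of CPM, DAC+SB over DMSO, for each gene in H1299 (green) and HCT116 (purple), with 95% counting intervals. Open triangles are lower bounds with a DMSO count of 0 set to 3, drawn without counting error, and dotted lines mark 4-fold. CDKN2A, RASSF1 and MGMT lay left of 0 in both lines, and HIC1, GATA4, GATA5 and TFPI2 right of the upper dotted line in both.

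Shares of cells were compared after each cell was thinned at random to 3300 counts, which left out 402 shallower HCT116 DAC+SB cells, so that 3925 were compared. CDKN2A was found in 68.8%, 42.7%, 72.1% and 29% of cells (98.2%, 84.4%, 98.9% and 50.7% without thinning). TFPI2 was found in 8.86% of untreated and 27.8% of treated H1299 cells, in no untreated HCT116 cell and in 3.03% (2.52 to 3.62) of treated HCT116 cells (33.0%, 62.4%, 0.0273% and 6.45% without thinning). By the level of 3 counts, the 0 in HCT116 DMSO allows up to 0.0820% of cells with a count, which says nothing of cells that hold the RNA without a count. TIMP3 was found in 3.69% (3.13 to 4.33) of HCT116 DAC+SB cells, and in 8.13% without thinning. GATA4 was found in 0.0838%, 0.939%, 0% and 4.51% of cells  (0.363%, 4.56%, 0% and 11.1% without thinning). HIC1 and GATA5 stayed under 1% of thinned cells in every library, and reached 3.81% and 0.993% of H1299 DAC+SB cells without thinning. Genes near 0 with DMSO were thus found in a minority of the treated cells at this depth, and a cell without a count is not shown to lack the RNA. Each library held 1 cell line, so there was no cell type known to lack these genes from which free RNA could be read.

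**Figure D3:**
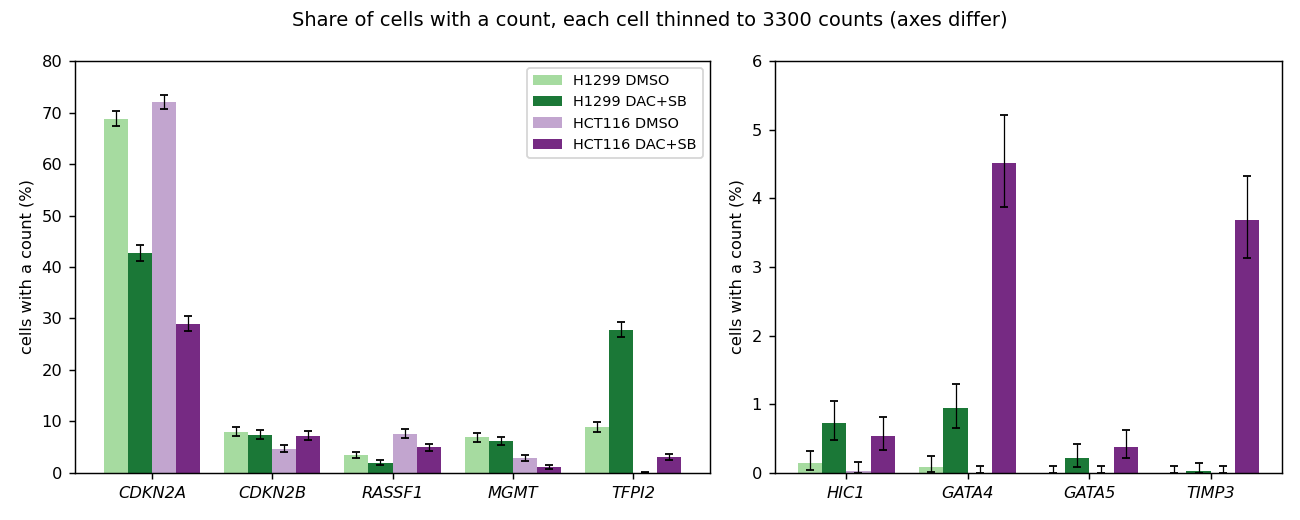
Percent of cells with a count of each gene after thinning to 3300 counts per cell, with exact Clopper-Pearson 95% intervals, in the 4 libraries; the right panel has a shorter axis. CDKN2A bars were lower with DAC+SB in both lines, and TIMP3 reached 3.69% in HCT116 DAC+SB alone.

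The genes differed in how their counts were spread over cells. In H1299 DAC+SB the summed levels of TFPI2 and CDKN2A were close, 170 and 184 CPM, which allows their spread to be set side by side within 1 library. TFPI2 was found in 62.4% of unthinned cells with 4.56 counts per positive cell and up to 258 in a cell, against 84.4%, 3.64 and 20 for CDKN2A. The 5% of cells richest in TFPI2 held 44.0% of its counts, and the corresponding share for CDKN2A was 17.7%. With DMSO, the highest TFPI2 count in an H1299 cell was 27. TFPI2 counts in treated H1299 were thus held by fewer cells at higher counts than those of CDKN2A. In HCT116 DAC+SB the richest 5% of cells held 85.3% of TFPI2, 70.8% of TIMP3 and 54.7% of GATA4 counts, at 279, 352 and 480 positive cells, where so few positive cells by themselves give high shares.

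**Figure D4:**
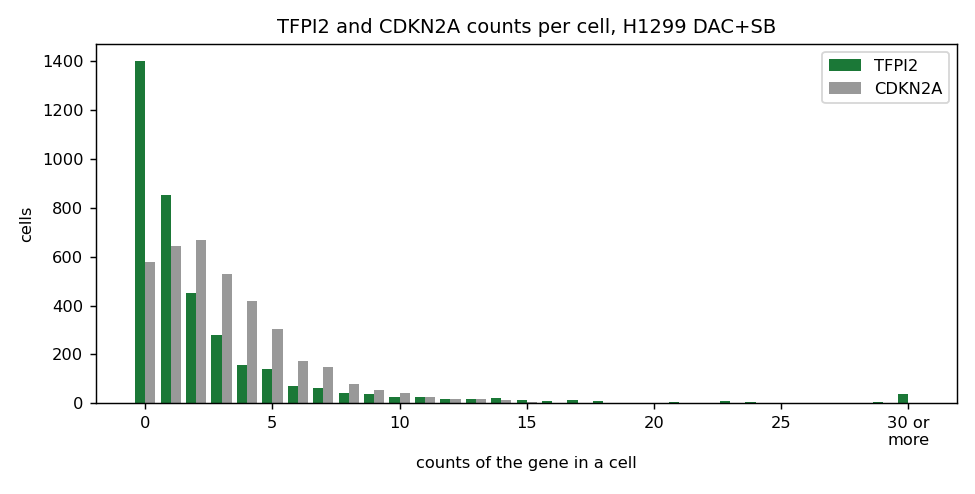
Number of H1299 DAC+SB cells (y axis) by counts of TFPI2 (green) or CDKN2A (grey) in the cell, without thinning; the last bar gathers 30 or more. TFPI2 had 1401 cells at 0 and 39 cells at 30 or more, against 580 and 0 for CDKN2A.

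The 5 genes near 0 with DMSO in at least 1 line (HIC1, GATA4, GATA5, TFPI2 and TIMP3, grouped after their values were seen) were also counted together in each cell. After thinning, 11.4% of HCT116 DAC+SB cells had at least 1 of them and 0.764% had 2 or more (23.9% and 3.56% without thinning). In H1299 DAC+SB these shares were 29.1% and 0.564% (65.0% and 6.41% without thinning), mostly from TFPI2. The share with 2 or more was thus larger at full depth, and no share expected from the separate genes was computed. In thinned HCT116 DAC+SB cells TIMP3 was found in 11 of 119 cells with TFPI2, or 9.24% (4.71 to 15.9), and in 3.52% (2.96 to 4.16) of cells without it. GATA4 was found in 6.90% (3.36 to 12.3) of cells with TIMP3 and 4.42% (3.79 to 5.12) of cells without it, intervals that overlap. With TFPI2 as the other gene, GATA4 was found in 5.04% (1.87 to 10.7) and 4.49% (3.86 to 5.20). In thinned H1299 DAC+SB cells the values for TFPI2 and GATA4 were 0.869% (0.398 to 1.64) and 0.967% (0.632 to 1.41). Of all pairs of the 5 genes in the treated libraries, only TFPI2 with TIMP3 in HCT116 had intervals apart after thinning. Before thinning they were also apart for TIMP3 with GATA4 in HCT116, at 17.0% (13.3 to 21.4) and 10.6% (9.63 to 11.6). The same held for TFPI2 with HIC1 in H1299, at 4.77% (3.94 to 5.72) and 2.21% (1.51 to 3.13), and for no further pair. In HCT116 DAC+SB, the 279 cells with a TFPI2 count before thinning had a median of 10652 counts, against 8315 in the 4048 without one. The depth of the 119 cells with a TFPI2 count after thinning was not computed. The part of depth in these pairs was not tested. The 279 cells with a TFPI2 count before thinning had the HCT116 marker EPCAM at 53.1 CPM (45.2 to 61.9), against 44.5 (42.4 to 46.8) in the 4048 others. They had the H1299 marker VIM at 277 CPM (259 to 296), against 264 (259 to 269). In H1299 DAC+SB, EPCAM stood at 4.47 CPM and VIM at 1151. Both intervals overlapped those of the other cells of the library, although the share of cells with EPCAM before thinning did not, at 34.8% (29.2 to 40.7) against 26.5% (25.2 to 27.9). In HCT116 DAC+SB cells with a GATA4 count before thinning VIM was lower, at 229 CPM (216 to 243) against 271 (265 to 276). In those with a TIMP3 count before thinning VIM was 261 (245 to 278) against 266 (260 to 271). All of these VIM values lay far below the level in H1299.

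Treated cells of at least 3300 counts were also ordered by their TE share and divided into 4 groups of nearly equal size, numbered from the lowest share. The 402 shallower HCT116 DAC+SB cells were thus left out of both shares and levels. Cell shares used thinned counts, and levels were CPM of gene counts alone, so that TE counts did not enter the denominator. In HCT116 DAC+SB the median TE share went from 2.33% in group 1 to 9.83% in group 4. TIMP3 had 6.17 (4.74 to 7.90), 11.8, 15.6 and 19.8 (16.8 to 23.2) gene CPM from group 1 to group 4, and was found in 1.73% and 5.30% of thinned cells in those 2 groups. GATA4 had 11.6 (9.57 to 13.8), 14.3, 17.0 and 22.2 (18.9 to 25.8). TFPI2 had 10.3 (8.41 to 12.5), 10.2, 13.2 and 13.0 (10.5 to 15.8), with outer intervals that overlap. CDKN2A had 144 (136 to 151), 118, 120 and 105 (98.2 to 113), highest in group 1 and lowest in group 4. In H1299 DAC+SB, where the median TE share went from 1.28% to 5.13%, GATA4 again had its lowest value in group 1, 2.04 (1.40 to 2.88), and 3.91 (2.96 to 5.06) in group 4. HIC1 went the other way there, with 3.89 (2.98 to 5.00) in group 1 and 1.65 (1.05 to 2.45) in group 4. TFPI2 had 203, 162, 192 and 141, and CDKN2A 213, 189, 182 and 173. RASSF1 had 9.19 (7.75 to 10.8), 6.38, 5.86 and 4.87 (3.8 to 6.14) in H1299, and 16.5 (14.1 to 19.1), 14.4, 15.1 and 19.7 (16.6 to 23.1) in HCT116, where the outer intervals overlap. The difference between the lines in this was not tested. Across the HCT116 groups the median depth also went from 10164 to 7960 counts and the median mitochondrial share from 15.8% to 20.0%, whose part in these values was not tested.

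**Figure D5:**
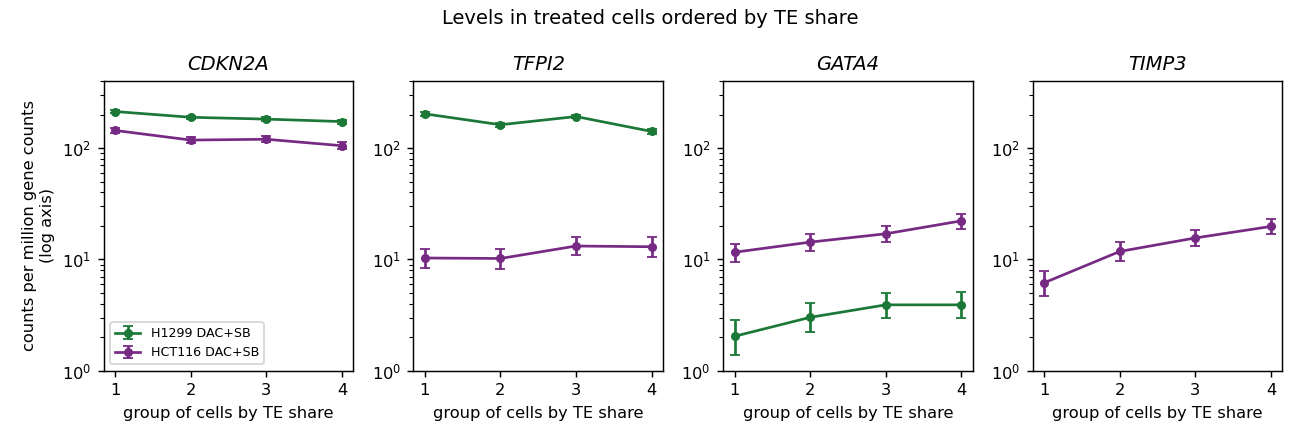
CPM of gene counts alone (log axis) of CDKN2A, TFPI2, GATA4 and TIMP3 in 4 nearly equal groups of treated cells of at least 3300 counts. Groups run from lowest to highest TE share, with exact Poisson 95% intervals. Green is H1299, purple HCT116. TIMP3 went from 6.17 to 19.8 and GATA4 from 11.6 to 22.2 in HCT116, while CDKN2A went from 144 to 105.

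For each member with at least 100 counts in a library, the 2 genes of most similar pattern were found among 15505 genes, by the Euclidean distance over the 4 libraries between log2(CPM + 1) values centred on each gene's mean. With 4 points, small distances are reached by many genes and carry no more than the order of the libraries. For CDKN2A they were BOD1 (distance 0.04) and U2AF2 (0.09), for CDKN2B WHAMM (0.02) and CYB5R4 (0.03), for RASSF1 ANKRD10 (0.08) and HIST1H4B (0.12), and for MGMT METTL21A (0.07) and HMMR (0.11). For HIC1 they were RP11-209D14.2 (0.03) and AC140912.1 (0.06), for TIMP3 LINC00052 (0.08) and GADD45G (0.09), and for GATA4 AC016723.4 (0.28) and MAGEB6 (0.31). GADD45G, a stress-response gene, had 0, 5, 5 and 503 counts, close to the 0, 3, 0 and 465 of TIMP3, and MAGEB6, a germline gene of the X chromosome, had 0, 190, 1 and 455, close to the 14, 194, 0 and 583 of GATA4. TFPI2 had no close match. Its nearest genes were PEG10 at 0.77 and RP11-15A1.3 at 0.78. PEG10, an imprinted gene derived from a retrotransposon, had 272, 1306, 6.93 and 173 CPM and lies 765333 bases from TFPI2 on chromosome 7.

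The members were set beside 47 other genes known for promoter methylation in lung or colon cancer. Of the 29 with at least 100 counts in H1299, 10 (34.5%) were at least 4-fold higher with DAC+SB and 0 lower, with a median log2 ratio of 1.02, where 11.0% of all tested genes were higher. Of the 33 in HCT116, 17 (51.5%) were higher and 1 lower, with a median of 2.12, where 9.63% of all tested genes were higher and 3.69% lower. The remaining 18 and 14 genes did not reach 100 counts, and a gene silent with DMSO reached that minimum only by being higher with DAC+SB, so these shares hold for the genes that passed. SOCS1, an inhibitor of cytokine signalling, was 16.1-fold and 12.4-fold higher in H1299 and HCT116, NDRG4 9.30-fold and 5.21-fold, and SLIT2, a guidance ligand, 7.77-fold and 7.46-fold. CCNA1, the germline cyclin A, had 80 and 619 counts in H1299, 8.0-fold higher, and 0 and 1242 in HCT116. The latter is 666-fold with DMSO set at 3 counts (log2 9.38, lower limit 9.08), if no counts lay in an unlisted feature. PCDH10, a protocadherin, was 9.5-fold higher in H1299 and had a ratio of 111 (log2 4.91 to 9.85) in HCT116 from 2 and 138 counts. CDKN1C, given above, is the sixth of this list past 4-fold in both lines. Of the 23 relatives of the members, 1 of 17 tested in H1299 and 4 of 18 in HCT116 were 4-fold higher and 0 lower in either, that is 5.88% and 22.2% higher, against 11.0% and 9.63% of all tested genes. Of the 25 partners and targets, 4 of 23 were higher and 1 lower in H1299, and 2 of 20 were higher and 2 lower in HCT116. These are 17.4% higher and 4.35% lower in H1299, against 11.0% and 0.349% of all genes, and 10.0% either way in HCT116, against 9.63% and 3.69%. Of the 10 genes on the list of neighbours, GATA4-AS1 and GATA5-AS1 were not among the gene names of the gene table. None was 4-fold apart among the 7 tested in H1299 and 6 in HCT116. CDKN2A-AS1, whose counts are given above, was not on that list and was past 4-fold in both lines.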

How the data were processed

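Whole-number counts per feature and cell were deposited by the authors, in a table of genes and another of transposable elements. The library of a cell was read from the ending of its name. The submitters' processing notes name CASAVA, STAR and GRCh38 (hg38), while the counting tool, the annotation, the cell filter, the use of strand and whether the counts are molecules were not given in the sources used here. Gene features that share a name before the first separator were summed per library, and 2419 names that join several genes, 0 of which contain a member, were left out. Levels are CPM, scaled to gene plus TE counts. Exact Poisson, Clopper-Pearson and conditional binomial 95% intervals, and a normal approximation on the log scale for differences between lines, cover counting error only. A gene at 0 was set to 3 counts per library. A ratio so made is called a bound, and it leaves out the counting error of the treated count. No doublets were called. With 1 library per group there was no test. Cells were thinned by hypergeometric draws (seed 1). The genes named were all 9 members, relatives and partners beside a member, list genes 4-fold apart in both lines in 1 direction, and the 2 genes nearest each member in pattern. CDKN2A-AS1 was named after its values were seen. The members and lists were chosen with earlier results of these data known. Scripts used Python 3.11.15, pandas 2.3.3, NumPy 2.4.6 and SciPy 1.17.1 and were tested on simulated data. The alternatives were other denominators, feature rules, cell filters, thinning, means over cells and other minimums and thresholds. Gene positions come from GENCODE v29 and promoter windows from RefSeq.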

Additional observations from a re-analysis of the deposited data

Results flagged for a closer look

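Feature 1 of RASSF1 stood out because it went in opposite directions in the 2 lines. Its log2 ratio of DAC+SB over DMSO was -0.80 in H1299 (133 and 74 counts) and 1.01 in HCT116 (286 and 357 counts). The difference between the lines was not tested, since each group is 1 library. Whether feature 1 marks the same start in both lines was not given in the sources used here.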

How the results depend on the processing

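No member with a ratio reversed its direction under the alternatives except CDKN2B in H1299, whose log2 ratio of 0.04 was -0.06 with cells thinned. The other genes named were not put through this set of alternatives. The number of members at least 4-fold higher in H1299, 3 as reported, was 1 with only features without a number (HIC1), 1 with cells thinned (TFPI2, the others having too few counts) and 1 at an 8-fold threshold (GATA4), where 7.90% of all tested genes passed over features without a number and 7.83% at 8-fold. The all-gene share with thinning was not computed. The number was 2 when numbered features had to be listed with both treatments, against 7.91% of all genes, and 4 with a minimum of 30 counts, which adds GATA5, against 17.9%. In HCT116 it was 5 with that minimum, which adds HIC1 and GATA5, against 16.3% of all genes. At a 2-fold threshold the number lower was 1 in H1299 (CDKN2A) and 2 in HCT116 (CDKN2A and MGMT), of 7 members each, against 7.34% and 20.0% of all genes. With thinning the lower bounds in HCT116 were log2 5.86 for GATA4 and 5.72 for TIMP3, against 8.29 and 7.96. TFPI2 in HCT116 and GATA5 in H1299, whose DMSO count was 0 after thinning, then had lower bounds only, 5.41 and 1.36, which cannot be set against their ratios from 1 DMSO count. RASSF1 in HCT116 was -1.71 over features without a number, against -0.86. Over all alternatives 25 ratio values lay outside the counting interval of the value reported and 130 did not. The remaining 32 were lower bounds, which move with the counts behind them. An alternative with unlisted numbered features taken as 9 counts and another without cells of shared barcodes were chosen after seeing the data. The first lowered the HCT116 values of TFPI2 to 6.11, GATA4 to 6.70, TIMP3 to 6.38, GATA5 to 2.73 and HIC1 to 2.45. The folds printed with DMSO set at 3 counts, and their lower limits, thus do not hold if a numbered feature went unlisted. No replicate could be left out, and no paired analysis was possible because each group holds 1 library. GATA5, and HIC1 in HCT116, rest on fewer than 100 counts, and 0 counts in a DMSO library limit a ratio to a bound that holds only where no counts lay in an unlisted feature.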

Other observations

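CDKN2A-AS1, an RNA antisense to CDKN2A by its name, was absent from the lists and was named after its values were seen. In H1299 it had 0 counts with DMSO and 194 with DAC+SB. That is 66.8-fold higher with DMSO set at 3 counts (log2 6.06, lower limit 5.75). In HCT116 there were 2 and 129 counts, a ratio of 104 (log2 4.82 to 9.76). CDKN2A itself was lower with DAC+SB in both lines, at log2 ratios of -1.06 and -1.86. The position of CDKN2A-AS1 was not looked up. Without known use of strand, counts of the 2 genes may not be separable if they overlap.

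CHFR, a mitotic checkpoint gene from the list of other promoter-methylated genes, was at 0 in HCT116 DMSO under its own name and had 256 counts in HCT116 DAC+SB, with 1637 and 1554 in H1299. A joined name that includes CHFR held 20 counts in HCT116 DMSO, so the 0 does not show that the gene was silent there.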
